A study of Mus musculus with 6 samples.

Results

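A set of 10 genes of the NF-kB response was followed across sorted thymic dendritic cells: Il1b, Il1rn, Ptgs2, Nlrp3, Tnfaip2, Tnfaip3, Nfkbia, Nfkbiz, Nfkb1 and Icam1. They were taken by symbol from the count files, which list 23420 genes, and all 10 were present and passed the filter on low counts. The 3 groups held 2 libraries each, all from wild-type mice. YG+ pDCs are plasmacytoid dendritic cells (CD11c low B220+) that carried yellow-green microspheres. They came from the thymus of mice bearing MC38 tumours, grown from a mouse colon carcinoma cell line. Tumour cells had been placed under the skin 12 days before the microspheres were injected into the tumour, and cells were taken 2 days later. PBS pDCs had the same surface phenotype, and PBS Sirpa+ DCs, sorted as CD11c high Sirpa+, are conventional dendritic cells. Both came from mice given PBS, with the treatment lasting 2 weeks by the labels. Strain and age are not given. The tumour, the microspheres and the choice of cells that carried them separate YG+ pDCs from PBS pDCs together and cannot be told apart. The labels do not say whether the libraries came from separate animals or pools, so the p-values cover the spread of these libraries, which may be technical.

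NF-kB is a family of dimeric transcription factors that inhibitor proteins hold in the cytoplasm of resting cells. Toll-like, interleukin-1 and tumour necrosis factor receptors activate the IKK kinases, which mark the inhibitors for destruction and free the dimers. Among the genes that are then switched on are inflammatory mediators and also the pathway's own inhibitors, which close a negative feedback loop. Nfkbia encodes the classical inhibitor IkB-alpha, Tnfaip3 a ubiquitin-editing enzyme that damps signalling above IKK, Nfkbiz a nuclear IkB protein that helps to switch on a subset of target genes, and Nfkb1 a subunit precursor. Il1b encodes a fever-inducing cytokine that is made as an inactive precursor, and Nlrp3 the sensor of an inflammasome that leads to its cleavage. Il1rn encodes the antagonist of its receptor, Ptgs2 the inducible cyclooxygenase of prostaglandin synthesis, Tnfaip2 a protein induced by tumour necrosis factor and Icam1 an adhesion ligand of leukocyte integrins. Thymic dendritic cells present antigen to developing T cells, and plasmacytoid ones are best known as producers of type I interferon.

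The promoters of 4 of these genes are shown because NF-kB targets are often recognised by kappaB motifs near the start site, and the 4 differed in what they held and in their RNA pattern. RefSeq (GRCm38.p6) gave windows from 250 bases before to 50 bases after a start for 8 of the 10 genes, 12 windows in all, and none for Nfkbiz or Nfkb1. The motifs were chosen after the promoters had been read, and they overlap each other. Both strands were searched for the degenerate kappaB consensus and for GGAAATNCC and GGACTTTCC, and capitals mark every match. Nfkbia (chr12:55492598-55492897, minus strand) and Tnfaip3 (chr10:19015361-19015660, minus strand) were the most abundant feedback genes per kilobase of all annotated exons. Nlrp3 (chr11:59541319-59541618, plus strand) was the one member called lower in pDCs whose window held a match. Il1b (chr2:129371090-129371389, minus strand) was among the genes with the smallest p between cell types and was added after its values were seen.
Nfkbia: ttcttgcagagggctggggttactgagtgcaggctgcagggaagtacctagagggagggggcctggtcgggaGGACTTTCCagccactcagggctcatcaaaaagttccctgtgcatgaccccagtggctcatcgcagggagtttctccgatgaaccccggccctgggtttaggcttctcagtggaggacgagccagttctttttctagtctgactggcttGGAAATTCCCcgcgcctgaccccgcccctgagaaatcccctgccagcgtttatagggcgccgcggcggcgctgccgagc
Tnfaip3: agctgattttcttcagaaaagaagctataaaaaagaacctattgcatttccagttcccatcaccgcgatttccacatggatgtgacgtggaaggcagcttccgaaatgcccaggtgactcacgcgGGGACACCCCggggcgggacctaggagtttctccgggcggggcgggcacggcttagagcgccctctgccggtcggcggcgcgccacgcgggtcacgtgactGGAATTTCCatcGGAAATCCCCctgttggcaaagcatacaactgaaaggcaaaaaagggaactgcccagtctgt
Nlrp3: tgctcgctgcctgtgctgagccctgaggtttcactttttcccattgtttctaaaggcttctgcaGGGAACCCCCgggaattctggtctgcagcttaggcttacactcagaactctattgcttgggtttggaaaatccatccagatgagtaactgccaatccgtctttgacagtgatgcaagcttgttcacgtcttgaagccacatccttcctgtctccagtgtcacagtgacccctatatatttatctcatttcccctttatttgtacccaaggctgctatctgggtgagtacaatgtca
Il1b: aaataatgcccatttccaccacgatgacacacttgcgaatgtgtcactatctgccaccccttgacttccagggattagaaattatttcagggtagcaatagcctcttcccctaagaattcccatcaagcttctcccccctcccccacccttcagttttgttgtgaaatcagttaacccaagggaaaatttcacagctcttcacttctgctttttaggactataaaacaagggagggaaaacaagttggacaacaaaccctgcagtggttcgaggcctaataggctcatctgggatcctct
Positions are those of the leftmost base of a match in the printed direction, with the start base as 0. The Nfkbia window held GGACTTTCC at -178 and a kappaB consensus match on the opposite strand at -29. The Tnfaip3 window held consensus matches at -125 on the printed strand and at -12 on the opposite strand. It also held a GGAAATNCC match on the opposite strand at -24. At -29 in Nfkbia and -12 in Tnfaip3 GGAAATNCC also matched, on the printed strand. The Nlrp3 window held a consensus match on the opposite strand at -186. The further RefSeq windows of Tnfaip3 and Nlrp3 held no match. Icam1 held GGAAATNCC matches at -153 and -84 but none to the consensus. None of these letters occurred in the windows of Il1b, Il1rn, Ptgs2 or Tnfaip2. Of all 32851 RefSeq promoter windows of this length, 4.51% held the consensus, 1.25% held GGAAATNCC and 0.344% held GGACTTTCC. A match is a description of the sequence and was not tied to binding.

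The libraries were shallow. Reads in genes totalled 713966 and 565406 in YG+ pDCs, 177844 and 413846 in PBS pDCs and 261136 and 525418 in Sirpa+ DCs, and these were 0.842% to 3.36% of uniquely placed reads. Tsix, which is transcribed antisense to Xist, had 2.70 to 20.5 times the Xist count in every library, and no source used here says how strand was treated. Which strand the counts stand for was therefore not settled, and this limit applies to every count below. Levels are given as CPM, counts scaled to the normalised total of the tested genes, and 3 reads, the most that a count of 0 allows, correspond to 4.21 to 19.1 CPM. PBS pDC replicate 1 was the shallowest library and had the lowest share of reads in genes, and the PBS pDC pair differed most beyond counting noise, with a chi-square per degree of freedom of 2.76 for YG+ pDCs, 11.9 for PBS pDCs and 5.66 for Sirpa+ DCs. The pDC marker list (11 genes) summed to 4430 and 6150 CPM in YG+ pDCs, 5913 and 6303 in PBS pDCs and 969 and 1216 CPM in Sirpa+ DCs, in accord with the labels. Sirpa itself stood at 392 and 306 CPM in YG+ pDCs, 198 and 319 in PBS pDCs and 575 and 748 CPM in Sirpa+ DCs.

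The 10 genes split into those that were scarce in pDCs and those that were not. Il1b, Il1rn, Ptgs2, Nlrp3 and Tnfaip2 had their highest means in Sirpa+ DCs, intermediate ones in YG+ pDCs and the lowest in PBS pDCs. Tnfaip3, Nfkbia, Nfkbiz, Nfkb1 and Icam1 were well detected in every library and their means spanned a narrower range. Tnfaip3, Nfkbia and Icam1 had the same order of means as the first 5, whereas Nfkbiz and Nfkb1 were highest in YG+ pDCs. The split is thus one of level and size of difference, and not of order. This grouping follows the values and was made after they were seen. As a share of all reads of the 10 genes, the first 5 made up 8.29% (95% Wilson interval 6.96% to 9.85%) and 9.90% (8.22% to 11.9%) in the YG+ pDC libraries. They made up 1.27% (0.348% to 4.50%) and 4.12% (2.79% to 6.06%) in PBS pDCs, and 41.2% (37.6% to 44.8%) and 43.0% (40.8% to 45.4%) in Sirpa+ DCs. The shares do not depend on the scaling between libraries. The 3 groups did not overlap, but a set formed from these values gives no support for a difference between them. Such intervals cover counting error only.

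**Figure D1:**
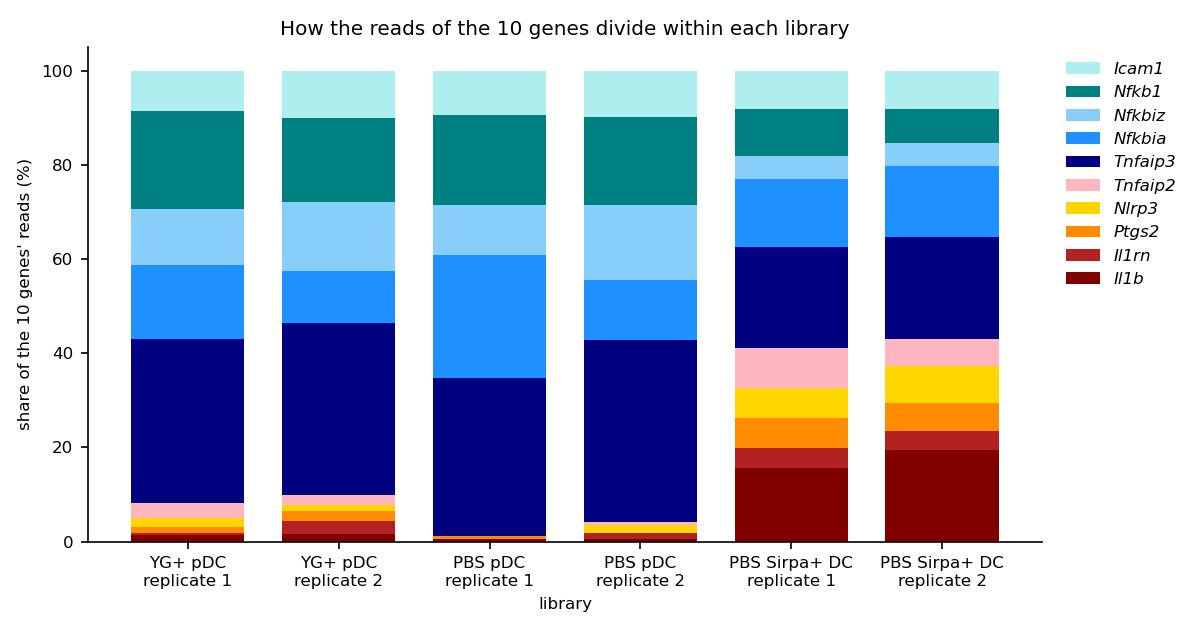
Share of the reads of the 10 genes (%, y axis) that each gene took in each of the 6 libraries (x axis). Il1b, Il1rn, Ptgs2, Nlrp3 and Tnfaip2, in warm colours, were grouped after their values were seen. They fill 8.29% and 9.90% of the bars of YG+ pDCs, 1.27% and 4.12% in PBS pDCs, and 41.2% and 43.0% in Sirpa+ DCs.

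Levels per kilobase of exon allow a rough comparison of genes. The length joins all annotated exons, so a gene with many of them, such as Nfkb1 with 12.1 kb, can be set too low. By this measure Nfkbia led in pDCs, with a mean level per kb of 160 CPM in YG+ pDCs, against 134 CPM in PBS pDCs. Tnfaip3 came next at 93.7 CPM per kb in YG+ pDCs and 59.4 CPM per kb in PBS pDCs. In Sirpa+ DCs Il1b (304 CPM per kb) and Nfkbia (299 CPM per kb) were level with each other. Il1b was at 14.5 CPM per kb in YG+ pDCs and 3.49 CPM per kb in PBS pDCs.

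**Figure D2:**
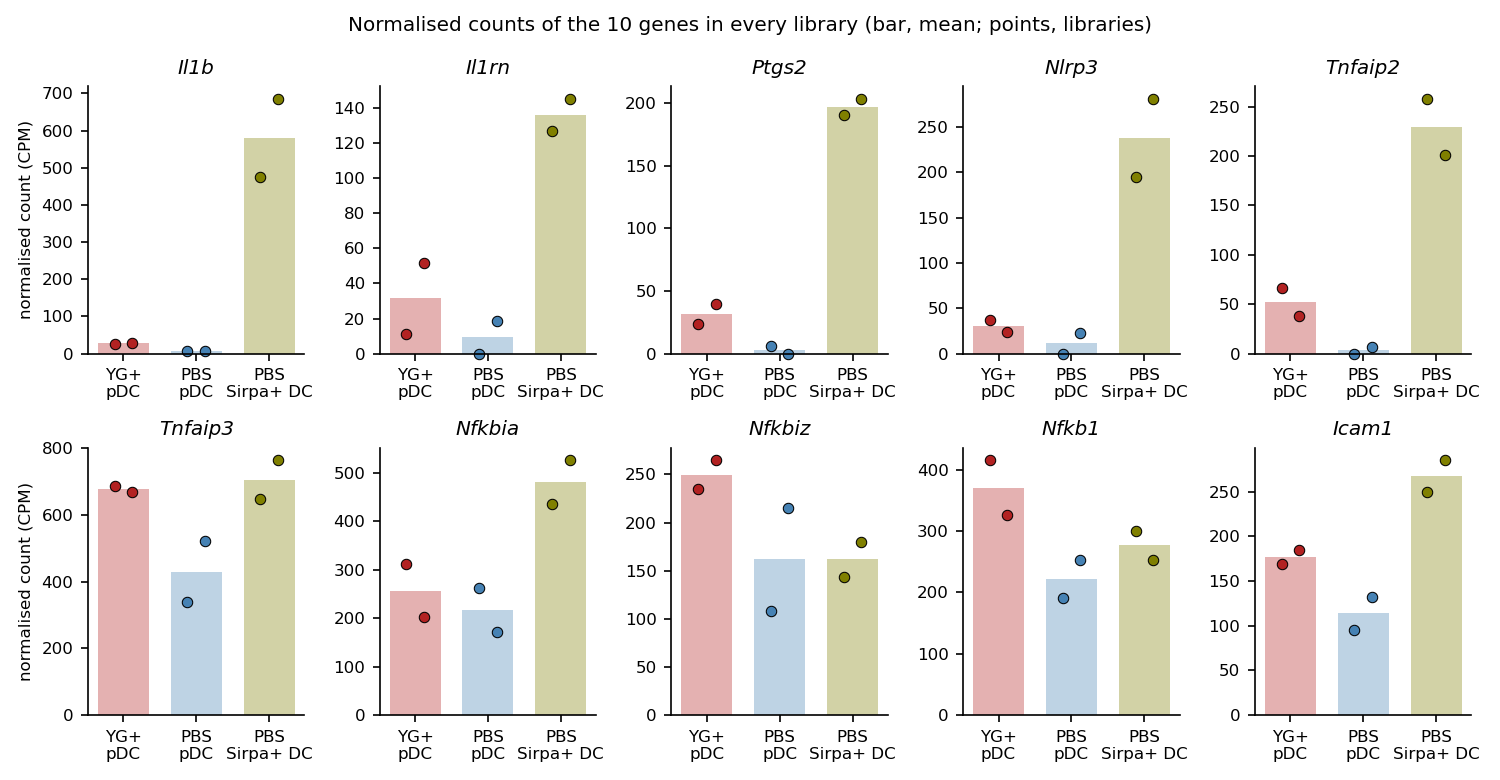
Normalised counts (CPM, y axis, linear from 0, scaled for each gene) of the 10 genes in the 3 groups; bars are means and points the 2 libraries of a group. Il1b averaged 27.7 CPM in YG+ pDCs, 6.66 CPM in PBS pDCs and 580 CPM in Sirpa+ DCs, whereas Tnfaip3 averaged 677, 429 and 706 CPM in the same order.

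Among the inflammatory effectors, the cytokine gene Il1b (chromosome 2, 129364570 to 129371139, minus strand, GRCm38) had 19 and 16 reads in YG+ pDCs (26.7 and 28.6 CPM), 1 and 3 reads in PBS pDCs (6.38 and 6.94 CPM) and 112 and 344 reads in Sirpa+ DCs (474 and 686 CPM). The 3 groups did not overlap, and Sirpa+ DCs were far above both pDC groups. The pDC groups were set apart by few reads, and 3 reads equal 19.1 CPM in PBS pDC replicate 1. Il1rn (chromosome 2, 24336853 to 24351494, plus strand) had 11.2 and 51.9 CPM in YG+ pDCs, 0 and 18.5 in PBS pDCs and 127 and 146 CPM in Sirpa+ DCs. Its pDC groups overlapped, and both lay below Sirpa+ DCs. Il1bos, on the opposite strand, covers 1.31% of the Il1b exon length in GENCODE M21.

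Ptgs2 (chromosome 1, 150100031 to 150108227, plus strand) had 17 and 22 reads in YG+ pDCs (23.9 and 39.4 CPM), 1 and 0 reads in PBS pDCs and 45 and 102 reads in Sirpa+ DCs (190 and 203 CPM). Its 3 groups did not overlap, and PBS pDCs were almost without Ptgs2 reads. In PBS pDC replicate 1, which held the 1 read, 3 reads equal 19.1 CPM, so few reads separate the pDC groups. The inflammasome sensor Nlrp3 (chromosome 11, 59541568 to 59566956, plus strand) had 36.5 and 23.3 CPM in YG+ pDCs, 0 and 23.1 in PBS pDCs and 195 and 281 CPM in Sirpa+ DCs. The lower YG+ pDC library and the higher PBS pDC library were level for Nlrp3. Tnfaip2 (chromosome 12, 111442469 to 111455018, plus strand) had 47 and 21 reads in YG+ pDCs (66.0 and 37.6 CPM), 0 and 3 reads in PBS pDCs (0 and 6.94 CPM) and 61 and 101 reads in Sirpa+ DCs (258 and 201 CPM). Its 3 groups did not overlap, again with few reads in PBS pDCs. A gene on the opposite strand covers 6.30% of the Tnfaip2 exon length, and reads of such pairs cannot be told apart while the treatment of strand is unknown.

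The feedback genes were present throughout. Tnfaip3 (chromosome 10, 19000910 to 19015657, minus strand) had 687 and 667 CPM in YG+ pDCs, 338 and 521 in PBS pDCs and 647 and 764 CPM in Sirpa+ DCs. YG+ pDCs and Sirpa+ DCs overlapped, and both PBS pDC libraries lay below them. Nfkbia (chromosome 12, 55489410 to 55492647, minus strand) had 312 and 202 CPM in YG+ pDCs, 262 and 171 in PBS pDCs and 436 and 526 CPM in Sirpa+ DCs. The pDC groups overlapped and lay below Sirpa+ DCs.

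Nfkbiz (chromosome 16, 55811375 to 55838899, minus strand) had 235 and 265 CPM in YG+ pDCs, 108 and 215 in PBS pDCs and 144 and 179 CPM in Sirpa+ DCs, so that YG+ pDCs were highest and the other two groups overlapped. Nfkb1 (chromosome 3, 135584655 to 135691547, minus strand) had 416 and 326 CPM in YG+ pDCs, 191 and 252 in PBS pDCs and 300 and 253 CPM in Sirpa+ DCs, again with YG+ pDCs highest. Icam1 (chromosome 9, 21015985 to 21028817, plus strand) had 169 and 184 CPM in YG+ pDCs, 95.7 and 132 in PBS pDCs and 250 and 285 CPM in Sirpa+ DCs, with no overlap between the groups. A gene on the opposite strand covers 11.7% of the Icam1 exon length.

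PBS pDCs were set against PBS Sirpa+ DCs to compare the cell types within PBS-treated mice. In this contrast 5 of the 10 genes were lower in pDCs and 0 were higher at an adjusted p under 0.05 (edgeR's quasi-likelihood test, Benjamini-Hochberg over 8141 genes). Of all genes tested, 11.4% were called, 6.89% lower and 4.54% higher. Both pDC libraries lay below both Sirpa+ DC libraries for 9 genes and above them for 0, beside 24.2% and 22.9% of all genes, with Nfkbiz overlapping. Nfkb1 counts among the 9 only by 252 against 253 CPM in its nearest libraries. Il1b fell by 6.36 ± 0.59 on the log2 scale (± SE, n = 2 libraries each, edgeR adjusted p = 6.91e-04), which was among the smallest adjusted p of all genes. Ptgs2 fell by 6.59 ± 0.85 (adjusted p = 0.00114) and Tnfaip2 fell by 5.45 ± 0.71 (adjusted p = 0.00116). With 1 read in the PBS pDC pair and 147 in the Sirpa+ DC pair, the pooled Ptgs2 ratio was 0.00852, with an exact 95% interval of 2.14e-04 to 0.0482. For Tnfaip2, with 3 and 162 reads, it was 0.0232 (0.00474 to 0.0690). Nlrp3 fell by 3.92 ± 0.68 (adjusted p = 0.00480) and Il1rn fell by 3.41 ± 0.84 (adjusted p = 0.0244). The median log2 fold change of the 10 genes was -2.31, beside 0.08 for all genes.

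The other 5 genes were not called between these cell types. Icam1 had a log2 fold change of -1.21 (95% interval -2.11 to -0.30, adjusted p = 0.0885) and Nfkbia one of -1.18 (-2.15 to -0.20, adjusted p = 0.124). Tnfaip3 had -0.71 (-1.63 to 0.21), Nfkb1 -0.30 (-1.21 to 0.61) and Nfkbiz 0.04 (-0.94 to 1.02). With a library left out, Nfkbia or Icam1 was called in some fits, and the calls of Nlrp3 and Il1rn were lost in others. The number of calls over all genes also changed widely between these fits, so such changes are no result about single genes. Over all settings run, the log2 fold change ran from -1.49 to -0.93 for Nfkbia and from -1.54 to -1.02 for Icam1. It was no higher than -3.36 for Nlrp3 and -2.87 for Il1rn.

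YG+ pDCs were lower than Sirpa+ DCs for 4 of the 10 genes and higher for 0, beside 7.16% called among all genes, 4.09% lower and 3.07% higher. Both YG+ pDC libraries lay below both Sirpa+ DC libraries for 7 genes and above them for Nfkbiz and Nfkb1, beside 29.1% and 32.8% of all genes. Il1b fell by 4.38 ± 0.46 on the log2 scale (edgeR adjusted p = 0.00137). Nlrp3 fell by 2.98 ± 0.57 (adjusted p = 0.0114), Ptgs2 fell by 2.64 ± 0.50 (adjusted p = 0.0107) and Tnfaip2 fell by 2.12 ± 0.48 (adjusted p = 0.0222). Il1rn had a log2 fold change of -2.15 (95% interval -3.64 to -0.65) and missed the threshold (adjusted p = 0.0840). The feedback genes lay closer to each other, at -0.06 (-0.97 to 0.84) for Tnfaip3, -0.90 (-1.85 to 0.04) for Nfkbia, 0.62 (-0.34 to 1.57) for Nfkbiz and 0.43 (-0.46 to 1.31) for Nfkb1. Icam1 was at -0.60 (-1.46 to 0.25). The median of the 10 genes was -1.51, beside 0.04 for all genes.

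Il1b was the sole gene called in every fit that left out 1 library. The calls of Nlrp3, Ptgs2 and Tnfaip2 were lost in some of these fits, and Il1rn was called in some. The number of calls over all genes also changed widely between these fits, so such changes are no result about single genes. Over all settings run, the log2 fold change ran from -4.65 to -4.09 for Il1b and from -3.37 to -2.68 for Nlrp3. It ran from -3.04 to -2.34 for Ptgs2, -2.62 to -1.79 for Tnfaip2 and -3.58 to -1.41 for Il1rn. Both comparisons with Sirpa+ DCs share the same Sirpa+ DC libraries.

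**Figure D3:**
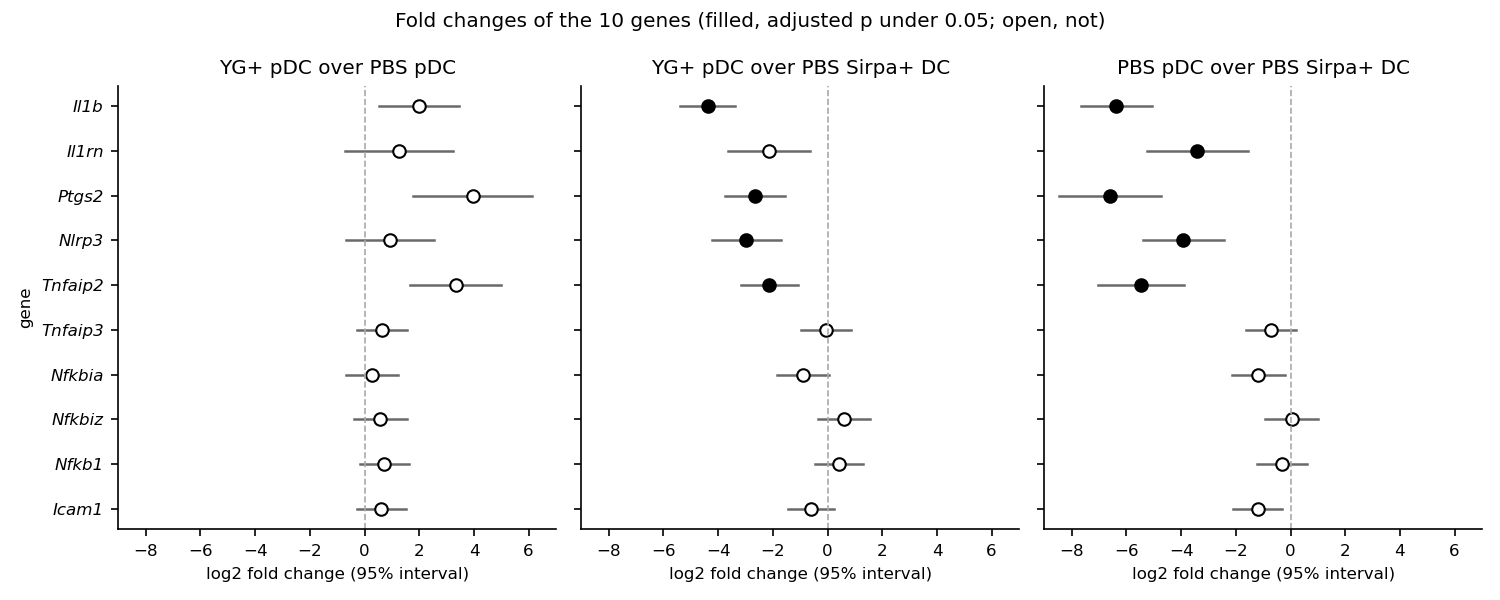
Log2 fold changes (x axis) of the 10 genes (rows) in each comparison, with 95% intervals; filled points passed an adjusted p under 0.05. No point is filled for YG+ pDCs over PBS pDCs, 4 are filled for YG+ pDCs over Sirpa+ DCs and 5 for PBS pDCs over Sirpa+ DCs.

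YG+ pDCs against PBS pDCs addresses how thymic pDCs that carried microspheres placed in a tumour differ from other thymic pDCs. By edgeR 0 of the 10 genes passed, as did 0 of all 8141 (0.0%). DESeq2 and limma-voom also called 0 of the 10. DESeq2 did call other genes in this comparison, and their number is given in the closing section. At an unadjusted p under 0.05, 3 of the 10 were higher and 0 lower, beside 4.69% higher and 6.72% lower among all genes. The 3 were Tnfaip2 (log2 fold change 3.33 ± 0.76, unadjusted p = 0.00107, adjusted p = 0.315), Ptgs2 (3.95 ± 1.00, unadjusted p = 0.00214, adjusted p = 0.315) and Il1b (1.98 ± 0.66, unadjusted p = 0.0120, adjusted p = 0.317). In reads, Ptgs2 had 39 in the YG+ pDC pair and 1 in the PBS pDC pair, a ratio per scaled read total of 18.1 (exact 95% interval 3.06 to 732). Tnfaip2 had 68 and 3, a ratio of 10.5 (3.45 to 52.2), and Il1b 35 and 4, a ratio of 4.06 (1.45 to 15.7). These intervals cover counting error and not the spread between libraries.

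All 10 log2 fold changes were above 0, beside 54.9% of all genes, with a median of 0.83 beside 0.08; with a library left out, Il1rn turned to -0.088 (without YG+ pDC replicate 2) and Nfkbia to -0.065 (without YG+ pDC replicate 1). Both YG+ pDC libraries lay above both PBS pDC libraries for 8 of the 10 genes, beside 26.5% of all genes. Il1rn and Nfkbia overlapped, and Nlrp3 counts among the 8 only by 23.3 against 23.1 CPM in its nearest libraries. The intervals were wide for the other genes, at 1.26 (-0.70 to 3.23) for Il1rn, 0.94 (-0.66 to 2.54) for Nlrp3 and 0.73 (-0.17 to 1.62) for Nfkb1. Tnfaip3 was at 0.65 (-0.27 to 1.56), Icam1 at 0.60 (-0.29 to 1.50), Nfkbiz at 0.58 (-0.38 to 1.54) and Nfkbia at 0.27 (-0.69 to 1.24). Without PBS pDC replicate 1 the log2 fold change of Tnfaip2 was 2.87 (adjusted p = 0.292) and of Il1b 1.94 (0.581), and Ptgs2, left with 0 PBS pDC reads, was not called (0.123). Without PBS pDC replicate 2, which leaves the shallow library alone, Tnfaip2 was called (adjusted p = 0.0307), beside 9.16% of all genes called in that fit. With no filter on low counts Tnfaip2 (0.0125) and Ptgs2 (0.0313) were called, beside 0.840% of all genes.

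Markers of other cell types moved with these genes. The macrophage and monocyte list (12 of 13 genes in the files) summed to 1954 and 1032 CPM in YG+ pDCs, 1033 and 560 in PBS pDCs and 3944 and 6420 CPM in Sirpa+ DCs. The lower YG+ pDC sum and the higher PBS pDC sum were level. Ly6c2 ran the other way, with 201 and 249 CPM in YG+ pDCs against 631 and 319 CPM in PBS pDCs. Without Ly6c2, left out after the values were seen, the sums were 1753 and 784 CPM in YG+ pDCs, 402 and 241 in PBS pDCs and 3931 and 6378 CPM in Sirpa+ DCs. These sums did not overlap, but a list changed by its own values gives no support for a difference between the pDC groups. Markers at 0 included Mertk and Fcgr1 in both PBS pDC libraries. The complement gene C1qa was at 169 and 41.2 CPM in YG+ pDCs, 12.8 and 4.63 in PBS pDCs and 449 and 780 CPM in Sirpa+ DCs. Cd68 and Ccr2 of the same list differed little between the pDC groups, with log2 fold changes of 0.22 and 0.19. Of the 11 tested, 7 were higher in YG+ pDCs than in PBS pDCs at an unadjusted p under 0.05 and 0 after adjustment, and 8 were lower and 1 higher in PBS pDCs than in Sirpa+ DCs after adjustment. In YG+ pDCs 3 were lower and 1 higher than in Sirpa+ DCs. The mature dendritic cell list (9 genes) summed to 1462 and 1122 CPM in YG+ pDCs, 606 and 430 in PBS pDCs and 5255 and 4155 CPM in Sirpa+ DCs. Ccl17, Il4i1 and Anxa3 were at 0 in PBS pDCs. All 7 tested members were lower in PBS pDCs than in Sirpa+ DCs, 5 were lower in YG+ pDCs than in Sirpa+ DCs, and 4 were higher in YG+ pDCs than in PBS pDCs at an unadjusted p under 0.05. Over all genes, 4.69% were higher in YG+ pDCs than in PBS pDCs at an unadjusted edgeR p under 0.05. After adjustment, 6.89% were lower and 4.54% higher in PBS pDCs than in Sirpa+ DCs. For YG+ pDCs against Sirpa+ DCs the shares were 4.09% lower and 3.07% higher. The counts of both marker lists are to be set beside these shares. The part of macrophages, monocytes and mature dendritic cells in the values of the 10 genes was not tested. In bulk RNA fewer cells of a type and less RNA per cell cannot be told apart.

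Neutrophil markers (10 of 11 genes in the files) summed to 96.9 and 96.6 CPM in YG+ pDCs, 51.0 and 13.9 in PBS pDCs and 21.2 and 51.8 CPM in Sirpa+ DCs. S100a8, S100a9, Mpo, Elane, Camp, Ngp and Retnlg were at 0 reads in both Sirpa+ DC libraries. The other members had reads there, with Csf3r at 16.9 and 37.9 CPM, Mmp9 at 4.23 and 3.99 CPM and Cxcr2 at 0 and 9.97 CPM. Csf3r had 28.1 and 12.5 CPM in YG+ pDCs and 6.38 and 4.63 in PBS pDCs. In YG+ pDCs S100a9 had 25.3 and 17.9 CPM, with Cxcr2 at 0, and in PBS pDCs S100a9 had 6.38 and 2.31 CPM. Conventional type 1 dendritic cell markers (7 genes) summed to 739 and 723 CPM in YG+ pDCs, 364 and 585 in PBS pDCs and 1917 and 1796 CPM in Sirpa+ DCs, and conventional type 2 markers (6 genes) to 892 and 820, 549 and 782, and 982 and 1332 CPM in the same order. B cell markers (9 genes) ran the other way, at 1024 and 952 CPM in YG+ pDCs, 1097 and 1192 in PBS pDCs and 233 and 93.7 CPM in Sirpa+ DCs, and markers at 0 in Sirpa+ DCs included Ms4a1 and Pax5. T cell markers (11 genes) summed to 601 and 723 CPM in YG+ pDCs, 555 and 648 in PBS pDCs and 165 and 163 CPM in Sirpa+ DCs. Their part was not tested either.

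The rest of the pathway was read from 7 lists of other genes, 99 in all, of which 75 could be tested. Between PBS pDCs and Sirpa+ DCs 22 of the 75 were lower in pDCs and 5 higher, and between YG+ pDCs and Sirpa+ DCs 8 were lower and 3 higher. Over all genes 6.89% were lower and 4.54% higher for PBS pDCs, and 4.09% lower and 3.07% higher for YG+ pDCs, and the counts of each list below are to be set beside these shares. Between YG+ pDCs and PBS pDCs 0 were called in either direction by edgeR. Median log2 fold changes over the 75 were -0.60, -0.43 and 0.39 in the same order of comparisons. Some genes named below share exon length with genes on the opposite strand, among them Txnip (19.4%), Cxcl16 (18.3%) and Ptger4 (16.5%). Reads of such pairs cannot be told apart while the treatment of strand is unknown.

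Other inflammatory NF-kB targets held more of these calls than any other list. Of 17 tested, 11 were lower and 1 higher in PBS pDCs than in Sirpa+ DCs, with a list median of -2.85, or -2.65 with a gene that had no read in PBS pDCs set at its bound. The chemokine gene Cxcl16 had 114 and 89.5 CPM in YG+ pDCs, 44.6 and 32.4 in PBS pDCs and 939 and 1220 CPM in Sirpa+ DCs. It fell by 4.85 ± 0.51 in PBS pDCs (adjusted p = 7.81e-04) and fell by 3.40 ± 0.45 in YG+ pDCs (adjusted p = 0.00232), each against Sirpa+ DCs. The T cell attracting chemokine gene Ccl5 had 22.5 and 42.9 CPM in YG+ pDCs, 6.38 and 6.94 in PBS pDCs and 212 and 177 CPM in Sirpa+ DCs, a pattern with the same order of groups as Il1b. It was called in both comparisons with Sirpa+ DCs (adjusted p = 0.00119 for PBS pDCs and 0.00777 for YG+ pDCs) but not between the pDC groups (log2 fold change 2.20 ± 0.69, adjusted p = 0.315). Ier3, an immediate early response gene, had 25.3 and 19.7 CPM in YG+ pDCs, 12.8 and 6.94 in PBS pDCs and 118 and 152 CPM in Sirpa+ DCs, and was called against Sirpa+ DCs for both. Ccl22, a chemokine of mature dendritic cells, had 451 and 345 CPM in YG+ pDCs, 140 and 164 in PBS pDCs and 1189 and 1035 CPM in Sirpa+ DCs, and passed for PBS pDCs (log2 fold change -2.85 ± 0.44) but not for YG+ pDCs (-1.48 ± 0.41, adjusted p = 0.0528). Ccl4, chosen after its values were seen as the single target that was higher, had 714 and 197 CPM in PBS pDCs and 50.8 and 108 CPM in Sirpa+ DCs (adjusted p = 0.0323).

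Of 11 subunits and kinases tested, 3 were lower in PBS pDCs than in Sirpa+ DCs and 0 higher, with a list median of -0.41. Rel, the c-Rel subunit, had 494 and 431 CPM in YG+ pDCs, 185 and 248 in PBS pDCs and 745 and 774 CPM in Sirpa+ DCs, and fell by 1.80 ± 0.42 in PBS pDCs (adjusted p = 0.0192). Relb, a subunit of the non-canonical arm, had 81.5 and 91.3 CPM in YG+ pDCs, 51.0 and 109 in PBS pDCs and 279 and 255 CPM in Sirpa+ DCs. It was lower than in Sirpa+ DCs for PBS pDCs (adjusted p = 0.0374) and for YG+ pDCs (0.0458). Map3k14, the kinase that starts the non-canonical arm, fell by 1.72 ± 0.45 in PBS pDCs (adjusted p = 0.0310), and in YG+ pDCs the value was -0.97 ± 0.40 (adjusted p = 0.176).

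Of 15 other inhibitors and regulators, 2 were lower and 1 higher in PBS pDCs than in Sirpa+ DCs, with a list median of -0.60. Tnip3, a partner of the Tnfaip3 protein, had 7 and 5 reads in YG+ pDCs, 0 in both PBS pDC libraries and 15 and 73 in Sirpa+ DCs. It was thus at least 20.5-fold lower in PBS pDCs, at 3 reads over the pair, and fell by 3.47 ± 0.63 in YG+ pDCs (adjusted p = 0.0105). Traf1, an adaptor of tumour necrosis factor receptors, had 122 and 138 CPM in YG+ pDCs, 70.2 and 97.2 in PBS pDCs and 334 and 293 CPM in Sirpa+ DCs, and was called for PBS pDCs (adjusted p = 0.0171). Nfkbid, a nuclear IkB protein related to the product of Nfkbiz, went the other way with 153 and 161 CPM in YG+ pDCs, 319 and 146 in PBS pDCs and 76.2 and 49.8 CPM in Sirpa+ DCs. It rose by 1.87 ± 0.51 in PBS pDCs (adjusted p = 0.0352).

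Among 10 tested genes around interleukin-1 and the inflammasome, Txnip, whose product binds the Nlrp3 protein, was higher in pDCs, in a list with a median of -0.35 for PBS pDCs over Sirpa+ DCs. It had 284 and 324 CPM in YG+ pDCs, 172 and 227 in PBS pDCs and 33.9 and 59.8 CPM in Sirpa+ DCs, with log2 fold changes of 2.64 ± 0.46 for YG+ pDCs (adjusted p = 0.00730) and 2.05 ± 0.46 for PBS pDCs (0.0170). The decoy receptor gene Il1r2 had 64.6 and 55.5 CPM in YG+ pDCs, 25.5 and 34.7 in PBS pDCs and 123 and 185 CPM in Sirpa+ DCs, and fell by 2.30 ± 0.48 in PBS pDCs (adjusted p = 0.0121). The inflammasome adaptor gene Pycard was not called, at 84.3 and 71.6 CPM in YG+ pDCs, 172 and 102 in PBS pDCs and 254 and 193 CPM in Sirpa+ DCs. Its order differed from that of Nlrp3, with YG+ pDCs lowest.

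Of 9 tested genes of Toll-like and interleukin-1 receptor signalling, 3 were lower in PBS pDCs than in Sirpa+ DCs and 0 higher, with a list median of -1.15. The lipopeptide receptor gene Tlr2 had 59.0 and 21.5 CPM in YG+ pDCs, 6.38 and 34.7 in PBS pDCs and 220 and 265 CPM in Sirpa+ DCs, and was lower in both pDC groups (adjusted p = 0.0201 for YG+ pDCs and 0.00895 for PBS pDCs). The ubiquitin ligase gene Traf6 had 98.3 and 111 CPM in YG+ pDCs, 12.8 and 46.3 in PBS pDCs and 157 and 128 CPM in Sirpa+ DCs, and passed for PBS pDCs (adjusted p = 0.0297). The adaptor gene Myd88 was at 26.7 and 17.9 CPM in YG+ pDCs, against 70.2 and 67.1 in PBS pDCs, opposite in direction to the 10 genes, with a log2 fold change of -1.59 ± 0.51 that did not pass (adjusted p = 0.315).

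Of 6 prostaglandin and leukotriene genes tested, Ptger4, a prostaglandin E2 receptor gene, was lower in both pDC groups and was the single call of the list, whose median was -0.30 for PBS pDCs over Sirpa+ DCs. It had 169 and 193 CPM in YG+ pDCs, 147 and 116 in PBS pDCs and 910 and 680 CPM in Sirpa+ DCs (adjusted p = 0.0124 for YG+ pDCs and 0.00424 for PBS pDCs). Ptgs1, the constitutive cyclooxygenase gene, had 24 and 3 reads in YG+ pDCs, 0 in both PBS pDC libraries and 1 and 13 in Sirpa+ DCs, and was not called. Of 7 adhesion genes tested, Itgal was higher and Vcam1 lower in PBS pDCs than in Sirpa+ DCs, with a list median of 0.58. Itgal, a chain of the integrin that binds the Icam1 protein, had 406 and 467 CPM in YG+ pDCs, 364 and 502 in PBS pDCs and 46.5 and 110 CPM in Sirpa+ DCs (adjusted p = 0.0143 and 0.0109 for the 2 pDC groups against Sirpa+ DCs). Itgal moved with the B and T cell markers given above, whose part was not tested.

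**Figure D4:**
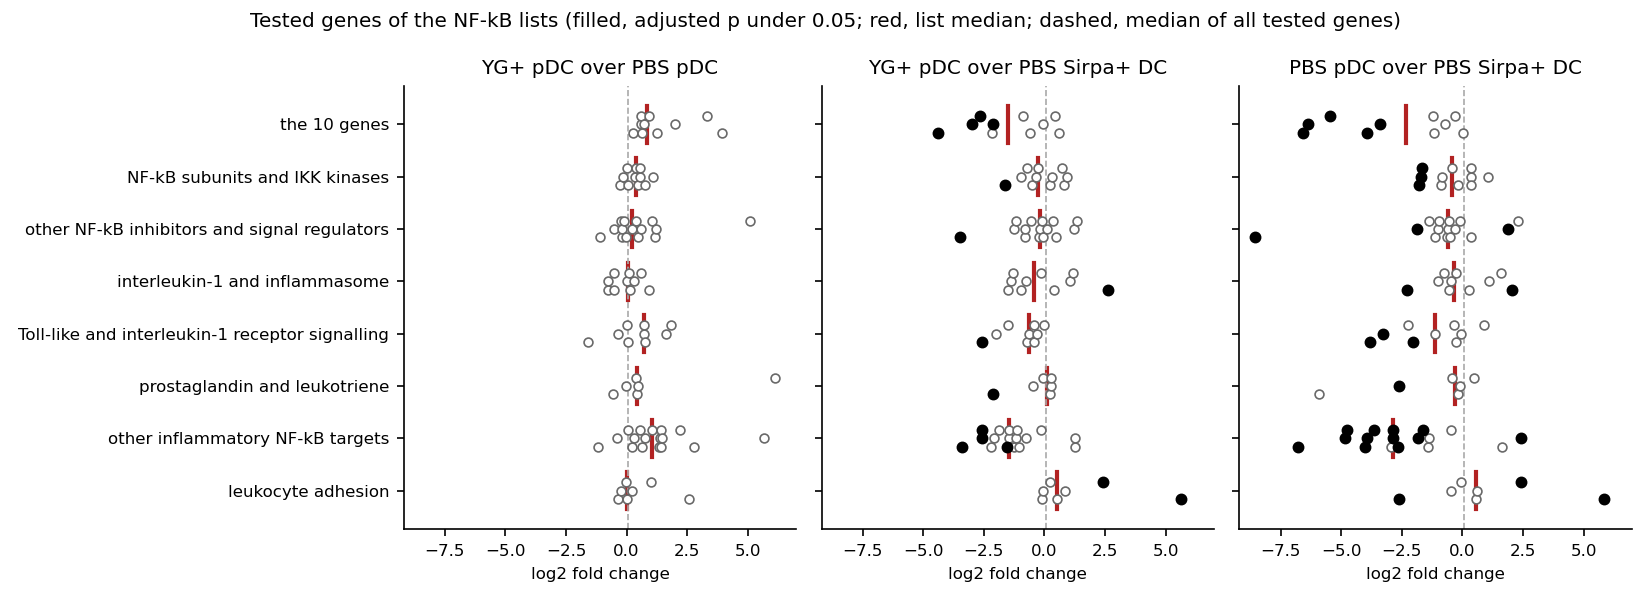
Log2 fold changes (x axis) of the tested genes of each list (rows) in the 3 comparisons; points are genes, filled at an adjusted p under 0.05, red bars list medians and dashed lines the median of all genes. Inflammatory targets have the lowest median of the lists drawn here in PBS pDCs over Sirpa+ DCs, with a median of -2.85, and no point is filled in YG+ pDCs over PBS pDCs.

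The gene most like each of the 10 over the 6 libraries was found by Pearson's r of log2 CPM, which ran from 0.989 to 0.999. With 6 libraries in 3 groups, such values are a description of shared group differences. Pogk followed Il1b (r = 0.999), with 53.4 and 55.5 CPM in YG+ pDCs, 44.6 and 44.0 in PBS pDCs and 88.9 and 91.7 CPM in Sirpa+ DCs, a much narrower range. Foxn2 followed Tnfaip2 (r = 0.999), Lrrc58 followed Nlrp3 (r = 0.999) and Mpp6 followed Tnfaip3 (r = 0.996). Among the members themselves, the 10 pairs within Il1b, Il1rn, Ptgs2, Nlrp3 and Tnfaip2 had r of 0.81 to 0.95, while the 10 pairs within the feedback genes and Icam1 ran from -0.35 to 0.89. The 25 pairs between these sets ran from -0.10 to 0.97, and Icam1 had r of 0.90 to 0.97 with each of the first 5. The sets were formed from these same values, so their correlations are a description.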

How the data were processed

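Thymic dendritic cells were sorted on a BD FACSAria III, RNA was isolated with TRIzol, and Ovation SoLo mouse libraries were made from 5 ng of RNA, per the labels' protocols; every sample has batch 1. The deposited files hold raw read counts per gene symbol. The submitters' processing notes name bcl2fastq 2.17 and mm10; the aligner, the counter, the annotation and whether strand was used: not given in the sources used here. Summary lines that name no gene (97.7% to 99.5% of records) were left out.

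All 6 libraries entered a fit of 3 group means in edgeR 4.0.16 (R 4.3.3; filterByExpr, TMM factors 0.924 to 1.09, glmQLFit and glmQLFTest), with 8141 genes tested, a biological coefficient of variation of 33.0% and calls at a Benjamini-Hochberg adjusted p under 0.05. SEs come from the F statistic. CPM values use reads in tested genes times the TMM factor, and log2 CPM for correlations a prior count of 2. The script was tested on simulated data. The 10 genes and all lists were chosen with earlier results of these data known. From each list, the text names genes from the up to 4 with the smallest p in either comparison with Sirpa+ DCs and up to 2 for YG+ pDCs against PBS pDCs; Ccl4 and the marker genes given singly are examples chosen after. Some genes of the lists are not reported here. Coordinates come from GENCODE M21 (GRCm38), promoters from RefSeq. Alternatives were DESeq2 1.42.0, limma-voom (limma 3.58.1), other scalings and filters, removal of Rn45s, Malat1, Tsix and Xist, a replicate block, fits of the 4 libraries compared and each library left out.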

Additional observations from a re-analysis of the deposited data

How the results depend on the processing

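The direction of Il1b, Ptgs2, Nlrp3 and Tnfaip2 held in every comparison under each alternative run. Between YG+ pDCs and PBS pDCs, where 0 of the 10 genes were called, 2 were called with no filter on low counts and 0 to 1 with a library left out; over all genes the 0 calls became 131 with DESeq2, 141 with no filter and 0 to 870 with a library left out (870 without PBS pDC replicate 2, 14 without YG+ pDC replicate 2 and 3 without PBS pDC replicate 1). Between YG+ pDCs and Sirpa+ DCs the 4 calls ran from 1 to 5 with a library left out, and the 583 calls over all genes were 894 with no filter, 1480 in a fit of the 4 libraries compared and 69 to 1487 with a library left out. Between PBS pDCs and Sirpa+ DCs the 5 calls ran from 3 to 6, and the 931 over all genes were 580 in the fit of 4 libraries and 214 to 1297 with a library left out. Some values changed sign. Il1rn in YG+ over PBS pDCs, 1.26, ran from -0.088 to 6.72 with a library left out (-0.088 without YG+ pDC replicate 2; the high end has no PBS pDC read and depends on the prior count), Nfkbia there from -0.065 (without YG+ pDC replicate 1) to 0.58, and Tnfaip3 in YG+ pDCs over Sirpa+ DCs from -0.20 to 0.065 (without Sirpa+ DC replicate 2), with 0.025 for library totals. Nfkbiz in PBS pDCs over Sirpa+ DCs, 0.04, became -0.0090 with limma-voom, -0.028 with a 10 CPM filter, -0.0054 without Rn45s, Malat1, Tsix and Xist and -0.0080 with the replicate block, and -0.64 to 0.40 with a library left out (-0.64 without PBS pDC replicate 2, -0.12 without Sirpa+ DC replicate 1, -0.01 without either YG+ pDC library). The cause was not tested. Replicate numbers are only names in the labels: deviations of same-numbered libraries correlated at -0.12, -0.10 and 0.30 in the 3 pairs of groups. With a replicate block, whose number of calls over all genes is not reported here, 0, 5 and 5 of the 10 genes were called. These counts are therefore not a result about the 10 genes as a set. The fifth in YG+ pDCs over Sirpa+ DCs was Il1rn (edgeR adjusted p = 0.0302). Il1rn was also called there with limma-voom (0.0274), no filter (0.00502) and the fit of 4 libraries (0.0131). Il1rn failed the filter, and has no value, in the 4-library fit of YG+ pDCs and PBS pDCs, and DESeq2 gave it no adjusted p there. A fit that leaves 1 library in a group assumes that it varies like the others. In the shallowest library a gene with no read could have reached 19.1 CPM, so differences among low genes were not detectable there.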
